A study of Mus musculus with 12 samples.

Results

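Transcripts of 10 genes that make the galactolipids and other sphingolipids of myelin were followed in mouse spinal cord: the ceramide genes Sptlc1, Sptlc2, Degs1 and Cers2, the fatty acid elongases Elovl1 and Elovl7, the hydroxylase Fa2h, the galactosyltransferase Ugt8a, the sulfotransferase Gal3st1 and the sphingomyelin synthase Sgms1. They were chosen by gene symbol, each symbol was found once among the 56953 genes of the count tables, and all 10 were among the 19278 genes that passed the filter on low counts. The 12 libraries were messenger RNA of whole spinal cord from 4 groups of 3 mice each, named here with the genotype of the label: Ddx20 cKO and control at 4 weeks, and Ddx20 cKO and control at 4.5 weeks after tamoxifen. The cKO animals came from crossing Ddx20flox/flox mice with mice that carry the Plp-CreER transgene, a tamoxifen-dependent recombinase that is active in oligodendrocytes and in the Schwann cells of peripheral nerve. The labels call the other animals only Control, so which alleles those mice carried, and the strain and age of all animals, are not given in the sources used here.

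Myelin membrane is unusually rich in lipid, and galactosylceramide with its sulfated form, sulfatide, are the lipids it is best known for. Serine palmitoyltransferase makes the sphingoid backbone, a ceramide synthase joins a fatty acid to it, and a desaturase completes ceramide. In oligodendrocytes that fatty acid is often very long and 2-hydroxylated, and the finished ceramide is given galactose and then sulfate, or is turned into sphingomyelin. Mice that lack Ugt8a, the mouse gene for ceramide galactosyltransferase, form unstable myelin, and loss of FA2H function in people causes a leukodystrophy with spasticity.

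Libraries held 33104560 to 47677267 counts, and the members had between 801 counts (Elovl7) and 13755 counts (Ugt8a) in a library. Levels are given as CPM, counts scaled to a common library size by trimmed mean of M values. A log2 fold change is cKO over control with its standard error (SE), each adjusted p is from edgeR's quasi-likelihood test with Benjamini-Hochberg adjustment over all genes tested, and a gene is called at an adjusted p below 0.05. The targeted gene, Ddx20, showed no lower level under the cKO label: it had 10.2, 11.1 and 9.9 CPM at 4 weeks, against 11, 9.78 and 11.1 CPM in controls (log2 fold change -0.03, adjusted p 0.84), and 12.4, 11.1 and 13.3 CPM at 4.5 weeks, against 9.16, 10.6 and 9.71 CPM in controls (0.33, adjusted p 0.013, which became 0.099 with control libraries 1 and 2 left out, 0.06 with control library 1 left out and 0.063 with cKO library 3 left out). A count summed over a gene cannot show whether an exon was deleted, and the group names below are those of the labels. By Xist and Y-linked transcripts, cKO libraries 1 and 2 of 4 weeks were female and library 3 male, all 3 controls of 4 weeks were male, and all 6 libraries of 4.5 weeks were female. With a sex term, an effect at 4 weeks therefore rests on cKO library 3, the only male of its group, against the 3 male controls. Genes of peripheral tissue stood out in 2 control libraries of 4.5 weeks: the 7 Schwann cell markers summed to 296 CPM in library 1, against 56.9 and 52.4 CPM in the other controls, and the muscle gene Acta1 reached 53.9 CPM in library 2. Where leaving out both of these libraries ended a call on a member, the value without them is given.

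At 4 weeks 8 of the 10 genes fell in cKO and 0 rose, with a median log2 fold change of -0.42. Over all genes tested, 37.2% were called, 17.2% lower and 20.1% higher, and the median was 0.007. The same 8 members were lower in every cKO library than in any control, and 47.2% of all genes stood apart in this way in one direction or the other. The fall was steepest for Ugt8a, Fa2h, Gal3st1 and Elovl7, the genes of galactosylation, hydroxylation, sulfation and elongation, at log2 fold changes of -0.97 to -1.79. It was shallower for Elovl1, Cers2, Degs1 and Sgms1, at -0.43 to -0.29, and Sptlc1 and Sptlc2 were not called. At 4.5 weeks 6 genes were called lower and 2, Sptlc1 and Elovl1, higher, with a median of -0.27. By then 32.6% of all genes were called lower and 33.3% higher, so that the share of members called in either direction, 8 of 10, was not far from the 65.9% of all genes called. The libraries of the groups stood apart for 8 members at 4.5 weeks and for 72.3% of all genes.

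**Figure D1:**
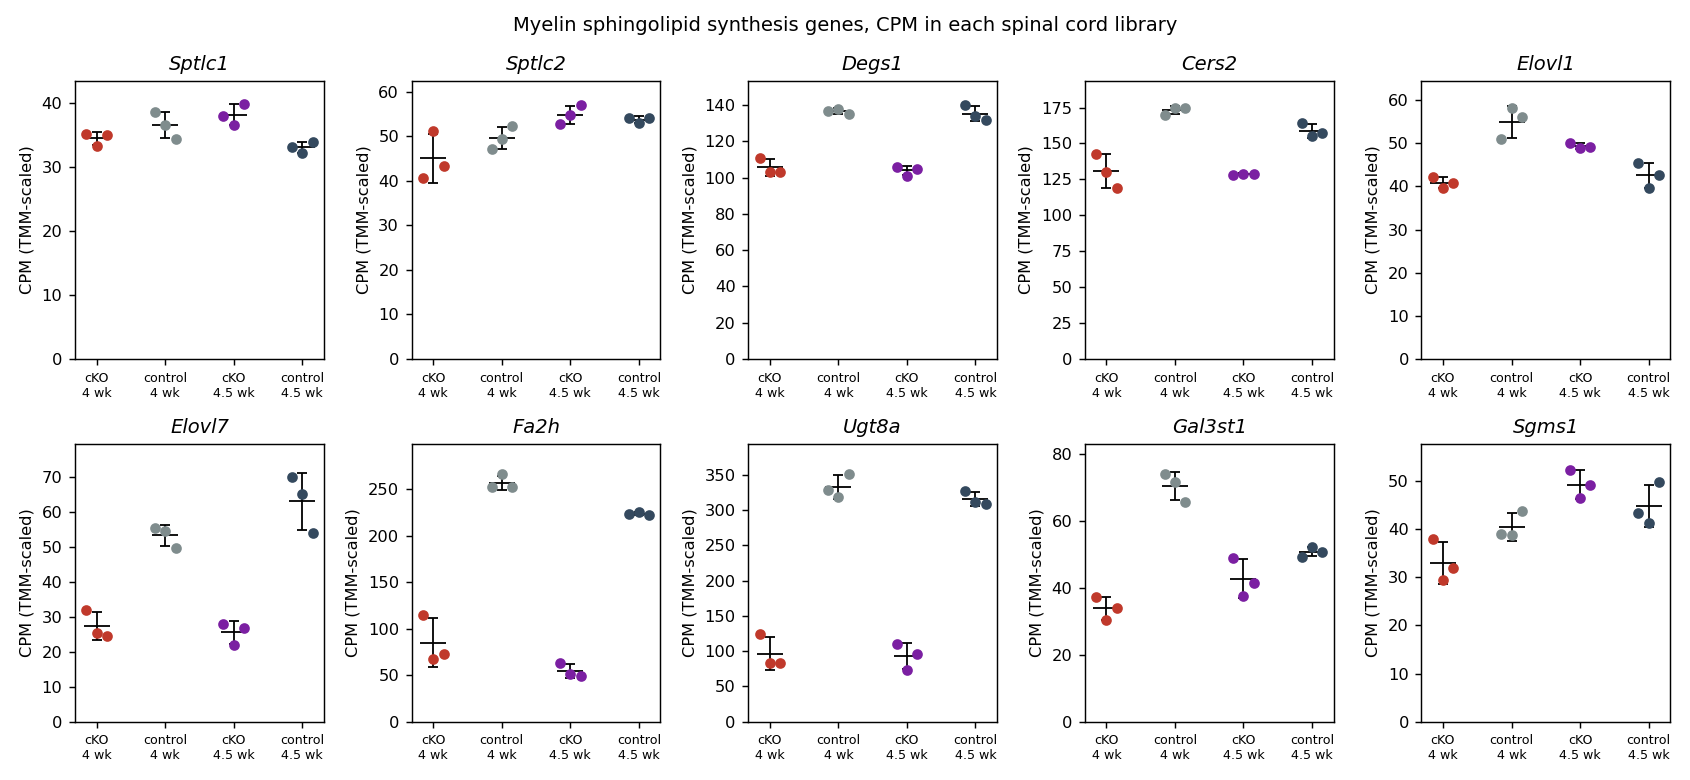
CPM of each of the 10 genes in each library (points), with the mean and SD of the 3 libraries of a group (bars); the vertical axes start at 0. The cKO libraries lie below their controls without overlap at both times for Degs1, Cers2, Elovl7, Fa2h, Ugt8a and Gal3st1, while Elovl1 lies below control at 4 weeks and above it at 4.5 weeks.

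Because whole tissue was sequenced, a lower level can come from fewer cells of a type or from less RNA per cell, and these cannot be told apart. Beside the members, all 10 myelin protein genes listed as markers were lower in cKO at 4 weeks (median log2 fold change -1.12), and 9 of 10 at 4.5 weeks (median -1.56), Cldn11 being the exception (-0.13). All 10 markers of mature oligodendrocytes were lower at both times. The 9 microglia and macrophage markers were higher at both times, with summed levels of 1220 to 2220 CPM in cKO and 395 to 421 CPM in controls at 4 weeks, and 8260 to 9250 CPM in cKO and 310 to 343 CPM in controls at 4.5 weeks. Astrocyte markers were lower too: of 8, at 4 weeks 5 were lower and 1 higher (median -0.90; summed 2900 to 4630 CPM in cKO and 5200 to 5770 CPM in controls), and at 4.5 weeks 5 were lower and 2 higher (median -0.47; 4950 to 5420 CPM in cKO and 6050 to 6320 CPM in controls). Of the 6 markers of oligodendrocyte progenitors, 2 were lower and 3 higher at 4 weeks (263 to 289 CPM in cKO and 203 to 255 CPM in controls), and all 6 were higher at 4.5 weeks (1270 to 1560 CPM in cKO and 195 to 203 CPM in controls). Neuronal markers were called lower for 1 of 8 at 4 weeks (8080 to 8850 CPM in cKO and 9090 to 10600 CPM in controls) and for 8 of 8 at 4.5 weeks (2800 to 3100 CPM in cKO and 11600 to 12300 CPM in controls). None of the markers in these lists was at 0 in any library, and their part in the members' values was not tested.

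The first 300-base windows of 4 members are shown because their transcripts took different courses: Ugt8a and Elovl7 were low in cKO at both times, whereas the effect on Gal3st1 and Elovl1 differed between the times. Each runs 5' to 3' on the gene's own strand from 250 bases before to 50 bases after the RefSeq start in GRCm38.p6, an older build than the mm39 of the counts, and RefSeq's table matched 9 of the 10 members. Capitals mark CCAAT and the GC box GGGCGG, searched on both strands, and matches that overlap run together. The windows lie at chr3:125938603-125938902 (minus strand) for Ugt8a, chr13:108214154-108214453 (plus) for Elovl7, chr11:3983386-3983685 (plus) for Gal3st1 and chr4:118427843-118428142 (plus) for Elovl1; where RefSeq gave several starts the one farthest upstream was used.
Ugt8a: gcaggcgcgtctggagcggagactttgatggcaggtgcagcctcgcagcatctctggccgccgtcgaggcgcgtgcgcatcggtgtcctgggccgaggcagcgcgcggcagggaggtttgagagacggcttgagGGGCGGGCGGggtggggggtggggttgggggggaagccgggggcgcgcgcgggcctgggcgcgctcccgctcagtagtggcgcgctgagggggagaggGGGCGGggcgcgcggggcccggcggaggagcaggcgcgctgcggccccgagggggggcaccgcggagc
Elovl7: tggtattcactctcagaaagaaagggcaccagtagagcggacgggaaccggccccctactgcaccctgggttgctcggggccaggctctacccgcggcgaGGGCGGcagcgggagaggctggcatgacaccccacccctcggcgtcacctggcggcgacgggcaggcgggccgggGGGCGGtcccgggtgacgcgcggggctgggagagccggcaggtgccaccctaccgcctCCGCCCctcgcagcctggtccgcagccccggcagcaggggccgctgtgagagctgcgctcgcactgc
Gal3st1: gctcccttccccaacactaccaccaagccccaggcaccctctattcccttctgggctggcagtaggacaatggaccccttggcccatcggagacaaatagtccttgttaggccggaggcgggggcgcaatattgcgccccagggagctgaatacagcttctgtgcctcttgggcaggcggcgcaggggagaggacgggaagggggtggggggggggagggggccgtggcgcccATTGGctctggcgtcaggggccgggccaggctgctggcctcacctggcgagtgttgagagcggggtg
Elovl1: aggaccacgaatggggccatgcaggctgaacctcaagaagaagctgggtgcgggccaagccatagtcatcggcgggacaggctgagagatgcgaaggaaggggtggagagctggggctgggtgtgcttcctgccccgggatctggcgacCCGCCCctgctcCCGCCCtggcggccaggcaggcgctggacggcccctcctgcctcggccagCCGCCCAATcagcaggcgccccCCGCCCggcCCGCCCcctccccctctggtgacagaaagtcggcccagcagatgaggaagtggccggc
GC content was 78.3% in the Ugt8a window, 74% in Elovl7, 67% in Gal3st1 and 70.7% in Elovl1. The window of Ugt8a held 3 GC boxes and 0 CCAAT, that of Elovl7 also 3 and 0, that of Gal3st1 0 GC boxes and 1 CCAAT, and that of Elovl1 5 GC boxes and 1 CCAAT. Among all 32851 windows of the table, 35.7% held GGGCGG and 37.4% CCAAT. The letters CTGGCAC, a core of the binding motif of the myelin transcription factor MYRF, stood in 5.01% of all windows and in 0 of the 16 windows of the members. Such matches are letters in a window and say nothing of binding.

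Ugt8a adds galactose to ceramide and so makes galactosylceramide. It had 124, 82.6 and 83.1 CPM in cKO libraries 1 to 3 at 4 weeks, against 329, 318 and 351 CPM in controls. At 4.5 weeks it had 110, 73 and 96.2 CPM in cKO, against 327, 312 and 308 CPM in controls. The highest cKO library lay far below the lowest control at both times. The transcript fell by 71% at 4 weeks (log2 fold change -1.79 ± 0.16 SE, adjusted p 4.3e-06) and fell by 70.5% at 4.5 weeks (-1.76 ± 0.16, adjusted p 6.3e-07), and the difference between these effects was 0.03 (95% interval -0.45 to 0.50, adjusted p 0.94). In library 3 of cKO at 4 weeks, male like its controls, it had 83.1 CPM. With a sex term the log2 fold change at 4 weeks was -2.00, a value that rests on this 1 cKO library against the controls.

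Fa2h, which puts the 2-hydroxyl group on the fatty acid, had the largest fall of the 10 at 4.5 weeks. Its level was 115, 67.5 and 73.1 CPM in cKO at 4 weeks, against 252, 266 and 253 CPM in controls. The later cKO libraries had 63.4, 51.6 and 49.7 CPM, against 224, 226 and 222 CPM in controls of 4.5 weeks. The groups did not overlap at either time, and the 3 cKO libraries of 4.5 weeks were all below the 3 of 4 weeks. Fa2h fell by 66.9% at 4 weeks (-1.60 ± 0.16 SE, adjusted p 1e-05) and fell by 75.5% at 4.5 weeks (-2.03 ± 0.16, adjusted p 2e-07). Between the cKO groups it was lower at 4.5 weeks (log2 -0.63 ± 0.16, adjusted p 0.0044), while the difference of the cKO effects between the times, -0.43, was not called (adjusted p 0.14). Without cKO library 2 of 4 weeks that difference was -0.58 (adjusted p 0.039).

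Gal3st1 turns galactosylceramide into sulfatide and followed another course. It had 37.3, 30.4 and 34 CPM in cKO at 4 weeks, against 74, 71.4 and 65.7 CPM in controls. The libraries of 4.5 weeks had 49, 37.6 and 41.5 CPM in cKO, against 49.3, 52.1 and 50.8 CPM in controls. At the later time cKO library 1 came within a fraction of a CPM of the lowest control, though the groups did not overlap. The transcript fell by 51.8% at 4 weeks (-1.05 ± 0.097 SE, adjusted p 5.3e-06) and fell by 15.8% at 4.5 weeks (-0.25 ± 0.096, adjusted p 0.036). That later call ended when control library 2 (adjusted p 0.091) or 3 (0.071) was left out, when cKO library 2 (0.15) or 3 (0.093) was, and when control libraries 1 and 2 both were (0.16).

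The elongases lengthen fatty acids by a pair of carbons per cycle; ELOVL1 acts on very long saturated chains, and Elovl7 is enriched in oligodendrocytes among cells of the mouse brain. Elovl7 had 32, 25.3 and 24.7 CPM in cKO at 4 weeks, against 55.6, 54.8 and 49.9 CPM in controls. At 4.5 weeks it had 27.9, 21.9 and 27 CPM in cKO, against 70, 65.3 and 54.1 CPM in controls. It fell by 48.9% at 4 weeks (-0.97 ± 0.12 SE, adjusted p 7e-05) and fell by 59.4% at 4.5 weeks (-1.30 ± 0.12, adjusted p 9.8e-07), with no overlap of groups at either time. Elovl1, in contrast, had 42.1, 39.7 and 40.9 CPM in cKO at 4 weeks, against 50.9, 58.1 and 56 CPM in controls. At 4.5 weeks it had 50.1, 48.9 and 49.2 CPM in cKO, against 45.5, 39.7 and 42.7 CPM in controls. All 3 cKO libraries were thus below the controls at 4 weeks and above them at 4.5 weeks. Elovl1 fell by 25.6% at 4 weeks (-0.43 ± 0.065 SE, adjusted p 0.00028) and rose by 15.9% at 4.5 weeks (0.21 ± 0.065, adjusted p 0.011). The rise was no longer called when control library 2 was left out (0.16, adjusted p 0.066) or control libraries 1 and 2 together (0.20, adjusted p 0.09).

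Cers2 encodes the ceramide synthase that prefers very long fatty acids, and Degs1 the desaturase that makes ceramide from dihydroceramide. Cers2 had 143, 130 and 119 CPM in cKO at 4 weeks, against 170, 175 and 175 CPM in controls, and 128, 129 and 129 CPM in cKO at 4.5 weeks, against 164, 155 and 157 CPM in controls. Degs1 had 111, 103 and 103 CPM in cKO at 4 weeks, against 137, 138 and 135 CPM in controls, and 106, 101 and 105 CPM in cKO at 4.5 weeks, against 140, 134 and 132 CPM in controls. Both stood lower in every cKO library than in any control of the same time. Cers2 fell by 24.7% at 4 weeks (-0.41 ± 0.06 SE, adjusted p 0.00022) and fell by 18.8% at 4.5 weeks (-0.30 ± 0.06, adjusted p 0.00068). Degs1 fell by 22.7% at 4 weeks (-0.37 ± 0.049 SE, adjusted p 8.3e-05) and fell by 23% at 4.5 weeks (-0.38 ± 0.048, adjusted p 1.6e-05), and its effects at the 2 times differed by -0.01 (95% interval -0.15 to 0.14).

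Sptlc1 and Sptlc2 encode the core subunits of serine palmitoyltransferase, the first and rate-limiting enzyme of the pathway in all cells. Sptlc1 had 35.2, 33.4 and 35 CPM in cKO at 4 weeks, against 38.6, 36.6 and 34.5 CPM in controls, where the groups overlapped (-0.08 ± 0.061 SE, 95% interval -0.21 to 0.05, adjusted p 0.31). At 4.5 weeks it had 38.1, 36.6 and 39.9 CPM in cKO, against 33.2, 32.3 and 34 CPM in controls. Every cKO library was then above every control, and the rise was 15.1% (0.20 ± 0.06, adjusted p 0.01), a call lost without control libraries 1 and 2 together (0.16, adjusted p 0.2). Sptlc2 had 40.6, 51.2 and 43.4 CPM in cKO at 4 weeks, against 47.2, 49.3 and 52.2 CPM in controls, and 52.8, 54.7 and 56.9 CPM in cKO at 4.5 weeks, against 54.2, 52.9 and 54.1 CPM in controls. Its groups overlapped at both times, with log2 fold changes of -0.14 (95% interval -0.31 to 0.03, adjusted p 0.19) and 0.03 (-0.14 to 0.20, adjusted p 0.76). Without cKO library 2 of 4 weeks the earlier value was -0.24 (adjusted p 0.017).

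Sgms1 makes sphingomyelin in the Golgi from ceramide, which is also the substrate of Ugt8a. Sgms1 had 37.8, 29.3 and 31.9 CPM in cKO at 4 weeks, against 38.9, 38.7 and 43.8 CPM in controls. Later it had 52.2, 46.3 and 49 CPM in cKO, against 43.3, 41.3 and 49.7 CPM in controls of 4.5 weeks. The groups stood apart by about a CPM at 4 weeks and overlapped at 4.5 weeks. It fell by 18.5% at 4 weeks (-0.29 ± 0.099 SE, adjusted p 0.034) and was not called at 4.5 weeks (0.14 ± 0.098, 95% interval -0.08 to 0.35, adjusted p 0.24). That earlier call ended when control library 1 (adjusted p 0.051) or 3 (0.13) was left out, or cKO library 2 (0.14) or 3 (0.1), with a sex term (0.12) and with 4 weeks fitted alone (0.059).

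**Figure D2:**
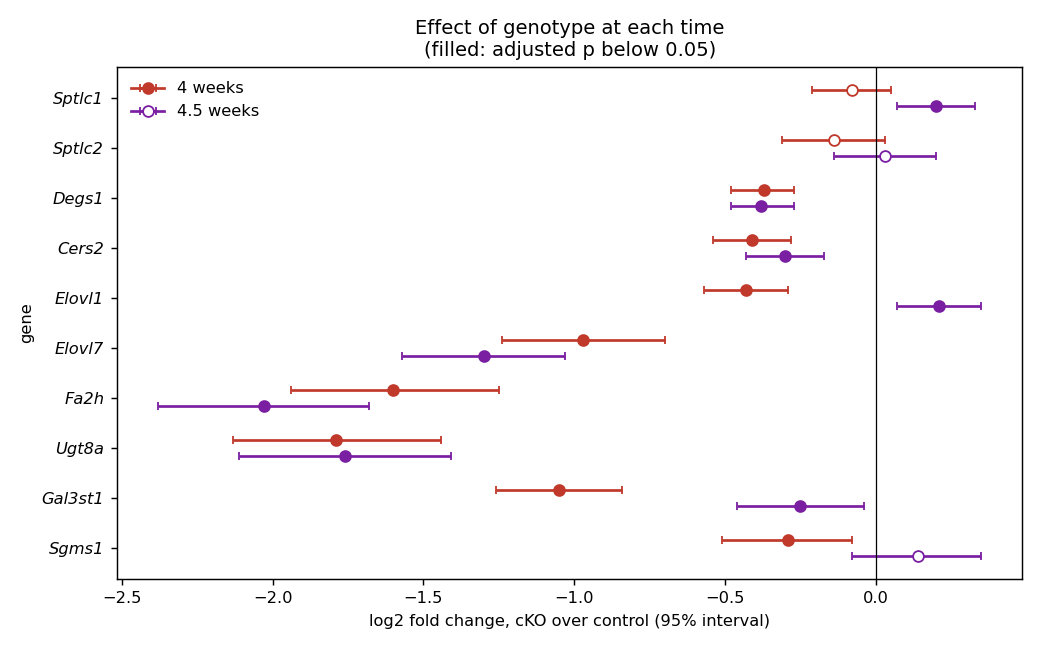
Log2 fold change of cKO over control for each gene at 4 weeks (red) and 4.5 weeks (purple), with 95% intervals; filled points have an adjusted p below 0.05. Ugt8a (-1.79 and -1.76) and Degs1 (-0.37 and -0.38) sit at the same place at both times, while Elovl1 crosses 0, at -0.43 and 0.21.

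The effect of genotype differed between the times for 4 of the 10 genes, each of them less negative or more positive at 4.5 weeks; of all genes, 18.7% were called in that direction and 21.9% in the other, 40.7% together. Gal3st1 moved by 0.81 (95% interval 0.51 to 1.10, adjusted p 0.00043) and Elovl1 by 0.64 (0.44 to 0.84, adjusted p 0.00013). Smaller shifts were called for Sgms1 (0.43, adjusted p 0.026) and Sptlc1 (0.29, adjusted p 0.018). With a sex term Gal3st1 (adjusted p 0.0052) and Elovl1 (0.0019) were still called, whereas Sgms1 (0.48, adjusted p 0.064) and Sptlc1 (0.27, adjusted p 0.09) were not, at fold changes close to those without the term. Without control libraries 1 and 2 of 4.5 weeks, Sgms1 (0.27, adjusted p 0.26) and Sptlc1 (0.24, adjusted p 0.15) also lost their call. Leaving out single libraries ended the call of Sptlc1 without control 1 of 4 weeks (0.053), and that of Sgms1 without control 3 (0.069), cKO 2 (0.063) or cKO 3 (0.062) of 4 weeks and without control 1 (0.056), control 2 (0.071) or cKO 1 (0.067) of 4.5 weeks. Sptlc2 was called without cKO 2 of 4 weeks (0.26, adjusted p 0.03).

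Within the cKO groups 4 members were higher at 4.5 than at 4 weeks and Fa2h was lower; 56% of all genes were called in this comparison, 27.2% higher and 28.8% lower, so that 5 of 10 is no more than the background. Sgms1 rose most (log2 0.58 ± 0.099 SE, adjusted p 0.00028), followed by Gal3st1 (0.33 ± 0.097, adjusted p 0.01), Sptlc2 (0.28 ± 0.077, adjusted p 0.0074) and Elovl1 (0.27 ± 0.065, adjusted p 0.0031). That of Gal3st1 was lost without cKO library 2 of 4 weeks (0.26, adjusted p 0.05) or cKO library 1 of 4.5 weeks (0.22, adjusted p 0.056), while Sptlc1 (0.15, adjusted p 0.057) passed without control 3 of 4 weeks (0.048) or cKO 2 of 4.5 weeks (adjusted p 0.05 after rounding), with DESeq2 size factors (0.048) and with a filter of 1 CPM in 3 libraries (0.036). Between the control groups, Gal3st1 (-0.47 ± 0.095, adjusted p 0.0064) and Elovl1 (-0.37 ± 0.065, adjusted p 0.0037) were lower at 4.5 weeks, 2 of 10 members, against 7.21% of all genes called lower, 9.53% called higher and 16.7% called in all. Both calls between the controls ended without control libraries 1 and 2 of 4.5 weeks (-0.47, adjusted p 0.12, for Gal3st1 and -0.36, adjusted p 0.066, for Elovl1) and with a sex term (-0.46, adjusted p 0.43, and -0.37, adjusted p 0.42), with the fold changes nearly the same. Time and sex cannot be told apart between the control groups, since those of 4 weeks were male and those of 4.5 weeks female. In cKO at 4 weeks, the male library had 34 CPM of Gal3st1, between the female values of 37.3 and 30.4 CPM, and 40.9 CPM of Elovl1, between 42.1 and 39.7 CPM. Cers2 was not called between the controls (-0.13, adjusted p 0.17) except without cKO library 1 of 4 weeks (-0.15, adjusted p 0.049).

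Per kilobase of the longest coding transcript, the genes changed places. In controls at 4 weeks Fa2h led with 103 ± 3.1 CPM per kilobase (SD, n = 3), followed by Ugt8a (88.4 ± 4.5), Cers2 (78.2 ± 1.3), Degs1 (66.7 ± 0.75), Gal3st1 (37.4 ± 2.3) and Elovl1 (30.4 ± 2), none of which overlapped its neighbour. Below them Sptlc1 (14 ± 0.79) overlapped Elovl7 (13.3 ± 0.77), and Sgms1 (10 ± 0.72) stood above Sptlc2 (7.39 ± 0.37). In controls at 4.5 weeks the first 6 places were the same. In cKO at 4 weeks the ceramide genes led, Cers2 with 59 ± 5.4 and Degs1 with 51.6 ± 2.3 CPM per kilobase, whose ranges overlapped, and Fa2h (34.2 ± 10) overlapped Ugt8a (25.7 ± 6.3), which overlapped Elovl1 (22.6 ± 0.66). At 4.5 weeks Fa2h stood sixth in cKO with 22 ± 3, below Elovl1 (27.3 ± 0.34) and with a range that overlapped those of Ugt8a (24.7 ± 5) and Gal3st1 (22.7 ± 3.1). Elovl7 was last in that group with 6.38 ± 0.81, below Sptlc2 with 8.17 ± 0.31.

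**Figure D3:**
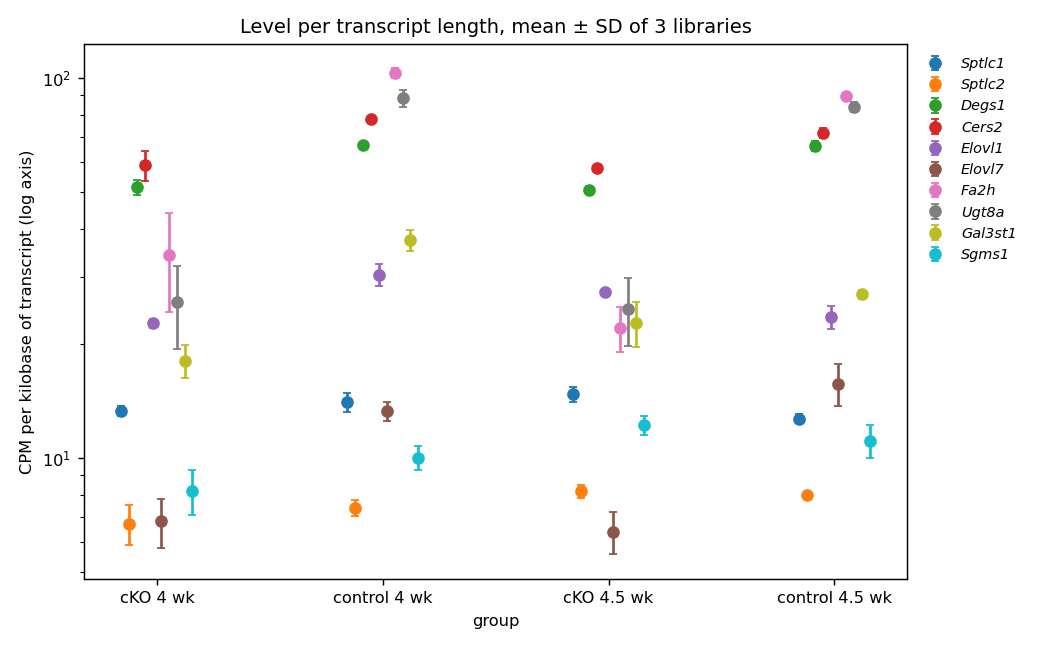
CPM per kilobase of the longest coding transcript on a log axis, mean ± SD of the 3 libraries of each group. Fa2h and Ugt8a are the top points of both control groups (103 and 88.4 at 4 weeks) and fall below Cers2 and Degs1 in both cKO groups.

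The members were also set beside the myelin protein genes. In each library the log2 CPM of a member (with a pseudocount of 0.5 CPM) was set against the median log2 CPM of the 10 myelin protein genes of that library, a level that was 8.66, 8.4 and 8.5 in cKO and 9.64, 9.76 and 9.69 in controls at 4 weeks, and 8.46, 8.29 and 8.12 in cKO and 9.55, 9.56 and 9.65 in controls at 4.5 weeks. The 10 myelin genes themselves ranged widely, with log2 fold changes of -1.62 to -0.55 at 4 weeks and -3.20 to -0.13 at 4.5 weeks, so a difference from their median is not a difference from each of them. On this scale Ugt8a was lower in cKO than in control (differences of -0.63 at 4 weeks and -0.48 at 4.5 weeks), and Fa2h also (-0.45 and -0.73), with no overlap of the groups. Elovl7 overlapped control at both times (0.22 and 0.01), as did Gal3st1 at 4 weeks (0.13), which at 4.5 weeks was higher by 1.04. Sptlc1, Sptlc2, Degs1, Cers2, Elovl1 and Sgms1 were higher without overlap. Their differences were 0.76 to 1.10 at 4 weeks and 0.92 to 1.51 at 4.5 weeks. The myelin median itself was lower in every cKO library than in any control. A gene of unchanged CPM therefore comes out higher on this scale. In CPM at 4 weeks Degs1, Cers2, Elovl1 and Sgms1 were called lower, and Sptlc1 and Sptlc2 were not called. At 4.5 weeks Sptlc1 and Elovl1 were called higher in CPM. Degs1, Cers2 and Gal3st1 were called lower then, and Sptlc2 and Sgms1 were not called. Of the 20 comparisons, 17 did not overlap. Each of these had an exact 2-sided permutation p of 0.1, the smallest that 3 against 3 libraries allow. Adjusted over the 20 it was 0.118, so none could pass 0.05. How many of all genes stand apart on this scale was not counted, so the 17 are not read as a trait of the members. Set against the 10 mature oligodendrocyte markers in place of the myelin proteins, the values at 4.5 weeks shifted, to -0.02 for Ugt8a, -0.27 for Fa2h and 0.47 for Elovl7 and to 1.38 to 1.97 for the other 7, while at 4 weeks they were -0.67, -0.49 and 0.18.

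**Figure D4:**
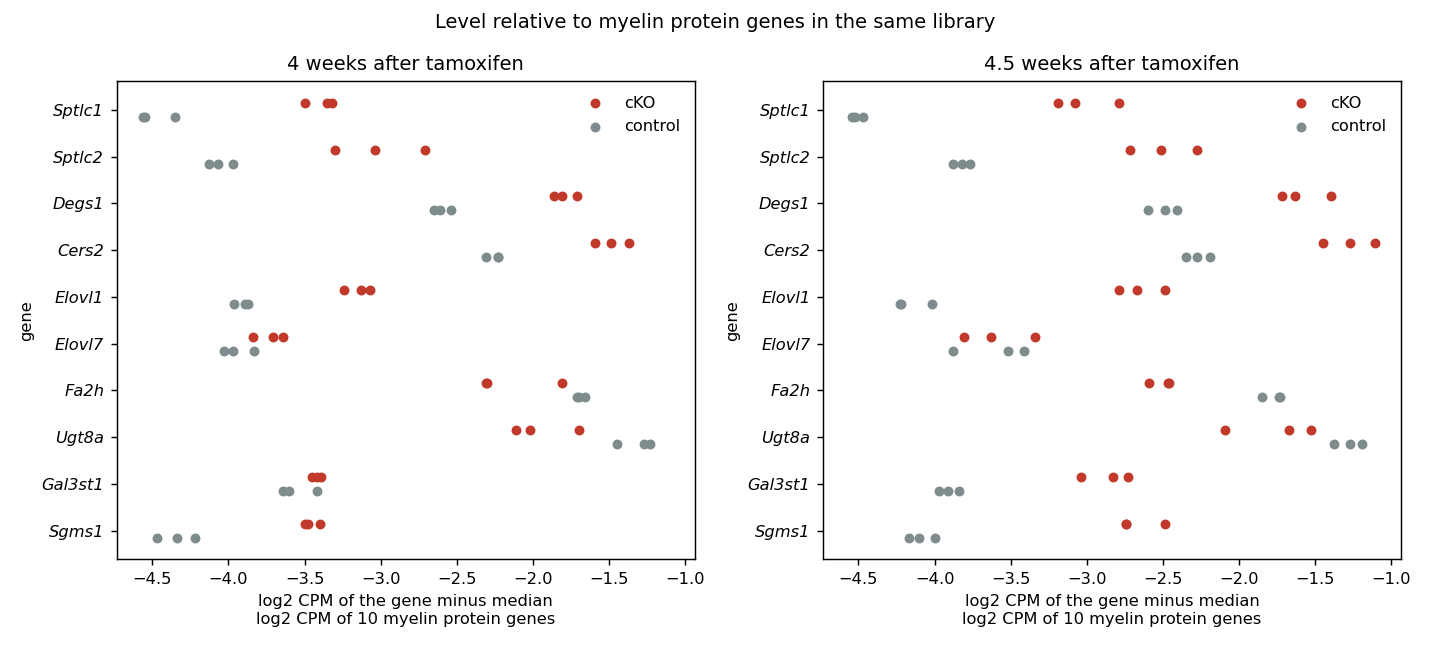
Log2 CPM of each gene minus the median log2 CPM of 10 myelin protein genes in the same library; each point is 1 library, cKO drawn above control. The Ugt8a and Fa2h points of cKO lie left of control at both times, and Elovl7 overlaps. The Sptlc1 points of cKO lie right of control, by 1.10 at 4 weeks and 1.49 at 4.5 weeks. The myelin median was itself lower in cKO, and Sptlc1 was not called in CPM at 4 weeks.

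Schwann cells of nerve roots also make galactolipid, and their markers were unequal between libraries. The 7 markers summed to 84.4, 92 and 45.3 CPM in cKO and 113, 213 and 130 CPM in controls at 4 weeks, and to 72.2, 71 and 65.9 CPM in cKO and 296, 56.9 and 52.4 CPM in controls at 4.5 weeks. In control libraries 2 and 3 of 4.5 weeks, where the markers summed to 56.9 and 52.4 CPM, Ugt8a stood at 312 and 308 CPM, Fa2h at 226 and 222 CPM and Gal3st1 at 52.1 and 50.8 CPM. Library 1, with 296 CPM of these markers, had 327 CPM of Ugt8a, 224 CPM of Fa2h and 49.3 CPM of Gal3st1. All 3 cKO libraries of 4.5 weeks had less Ugt8a and Fa2h than each of these controls. At 4 weeks the summed markers were lower in every cKO library than in any control, as were Ugt8a, Fa2h and Gal3st1. By gene, 1 of the 7 markers was called lower and 0 higher at that time. The part of Schwann cells in the members' values was not tested at either time.

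Over the 12 libraries the log2 levels of Ugt8a and Degs1 had a Pearson r of 0.993, although the fold change of Degs1 was much smaller, and those of Ugt8a with Elovl7, Fa2h, Cers2 and Gal3st1 0.974, 0.971, 0.948 and 0.85. With Elovl1, Sgms1, Sptlc2 and Sptlc1 the values were 0.316, 0.207, 0.123 and -0.289. Among non-member genes the closest to Ugt8a were Prrg1 (0.992), Ado (0.991) and Pacs2 (0.989), and to Fa2h Ndrg1 (0.995), Csrp1 (0.994) and Efhd1 (0.993). Those closest to Gal3st1 were Cd82 (0.971), Atat1 (0.968), an acetyltransferase of alpha-tubulin, and Jam3 (0.956), a junction protein. For Cers2 they were Pdlim1 (0.979), Gsn (0.969), the actin-severing gelsolin, and Gjb6 (0.966), an astrocyte connexin. For Elovl7 they were Maoa (0.983), Abca8a (0.98) and Scd1 (0.979), a desaturase of fatty acids. These coefficients describe libraries that share 2 genotypes and 2 times, and the differences between these groups enter them.

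Genes around the 10 were listed by role, 75 in all, of which 73 passed the filter (Elovl3 and Acer1 did not). At 4 weeks 25 were lower, 11 higher and 37 not called (median -0.06), or 34.2% lower and 15.1% higher, against 17.2% and 20.1% of all genes. At 4.5 weeks 28 were lower, 36 higher and 9 not called (median 0.22), or 38.4% lower and 49.3% higher, against 32.6% and 33.3% of all genes. With a sex term 19 in place of 36 were called at 4 weeks.

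Most other genes of fatty acid elongation were lower, as Elovl7 was, though the member Elovl1 was higher at 4.5 weeks. Of the 10 tested, 7 were lower and 1 higher at 4 weeks, and 8 lower and 1 higher at 4.5 weeks (median log2 fold change -0.71). With a sex term 3 were lower and 0 higher at 4 weeks. Of all genes tested, 17.2% were lower and 20.1% higher at 4 weeks, and 32.6% lower and 33.3% higher at 4.5 weeks. Elovl6, which elongates palmitate, had 56.2 ± 3.3 CPM (SD) in cKO and 91.1 ± 5.1 CPM in controls at 4 weeks (-0.70, adjusted p 2e-06), and 37 ± 0.83 CPM in cKO and 104 ± 1.2 CPM in controls at 4.5 weeks (-1.5, adjusted p 4.9e-10). Tecr, the last reductase of the cycle, had 203 ± 11 CPM in cKO and 487 ± 21 CPM in controls at 4.5 weeks (-1.27, adjusted p 9.1e-09), and Elovl5, for polyunsaturated chains, was lower at 4 weeks (-0.53, adjusted p 0.00081). The exception was the dehydratase Hacd4, at 14 ± 0.82 CPM in cKO and 0.993 ± 0.51 CPM in controls at 4.5 weeks (3.82, adjusted p 1.1e-07) and higher at 4 weeks too (1.30, adjusted p 0.0029; 1.01 and 0.072 with a sex term).

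The supply of sulfate and galactose was mixed: of 9 genes 4 were lower and 0 higher at 4 weeks, and 4 lower and 3 higher at 4.5 weeks. With a sex term 2 were lower at 4 weeks. Of all genes tested, 37.2% were called at 4 weeks and 65.9% at 4.5 weeks. Papss1, which makes the sulfate donor of Gal3st1, was lower at 4 weeks (-0.43, adjusted p 9.6e-05), as was the transporter of UDP-galactose Slc35a2 (-0.32, adjusted p 0.0034; 0.091 with a sex term). At 4.5 weeks Papss1 was not called (-0.01, adjusted p 0.85), and Slc35a2 was lower (-0.24, adjusted p 0.008). Papss2, the second gene for the sulfate donor, was lower at both times (-0.85, adjusted p 0.0071, and -1.34, adjusted p 1e-04). At 4.5 weeks Papss2 had 7.78 ± 0.8 CPM in cKO and 19.7 ± 0.62 CPM in controls. Ugp2, which makes UDP-glucose, was also lower at both times (-0.2, adjusted p 0.017, and -0.56, adjusted p 2e-06). Its earlier call was lost without control library 3 (0.062), without cKO library 2 (0.065) and with a sex term (0.16). The Golgi transporters of the sulfate donor, Slc35b2 (0.97, adjusted p 3.4e-07) and Slc35b3 (0.92, adjusted p 7.6e-05), were higher at 4.5 weeks.

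Among the other parts and regulators of serine palmitoyltransferase, 1 was lower and 1 higher of 7 at 4 weeks (0 and 0 with a sex term), and 2 lower and 4 higher at 4.5 weeks. The counts of this paragraph are read against the 37.2% of all genes called at 4 weeks and the 65.9% called at 4.5 weeks. The small subunit genes parted: Sptssb had 2.34 ± 0.74 CPM in cKO and 12.5 ± 0.4 CPM in controls at 4.5 weeks (-2.42, adjusted p 7.5e-07), while Sptssa rose there (0.71, adjusted p 2.5e-06) after a lower level at 4 weeks (-0.25, adjusted p 0.018; 0.08 without cKO library 2 and 0.13 with a sex term). Of the Ormdl genes, whose proteins restrain the enzyme, Ormdl2 was higher at 4.5 weeks (0.96, adjusted p 2.2e-05). Ormdl3 was higher at 4 weeks (0.19, adjusted p 0.016) and at 4.5 weeks (0.28, adjusted p 0.00067). Its call at 4 weeks was lost without control library 2 (0.065), without cKO library 2 (0.072) or with a sex term (0.17). Its log2 fold change at 4.5 weeks was 0.22 without control libraries 1 and 2 of that time. Kdsr, the reductase of the next step, was slightly lower at 4.5 weeks (-0.21, adjusted p 0.0084; 0.06 without control libraries 1 and 2). Of 6 other ceramide synthase and desaturase genes, 1 was lower and 1 higher at 4 weeks, and 1 lower and 4 higher at 4.5 weeks (2 higher without control library 2, with or without control library 1, and without cKO library 1 or 2). Cers1, the neuronal synthase, was lower at both times (-0.48, adjusted p 0.0029, and -0.42, adjusted p 0.0031; 0.11 at 4 weeks with a sex term). Cers3, at most 1.7 CPM in any library, was higher at both (2.19, adjusted p 0.0012, and 1.34, adjusted p 0.0098), and Cers5 was higher at 4.5 weeks (0.34, adjusted p 0.00076).

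The other exits from ceramide are read against the 37.2% of all genes called at 4 weeks and the 65.9% called at 4.5 weeks. Of 5 genes of sphingomyelin synthesis and lipid transfer, 2 were lower at 4 weeks, and 2 lower and 2 higher at 4.5 weeks. Col4a3bp, whose protein CERT carries ceramide to the Golgi, fell at both times (-0.36, adjusted p 0.00091, and -0.60, adjusted p 3.1e-06). Gltp, a glycolipid transfer protein, was lower at 4 weeks (-0.25, adjusted p 0.0083; 0.16 with a sex term) and higher at 4.5 weeks (0.53, adjusted p 9.2e-06), where Cptp, which carries ceramide phosphate, was lower (-1.11, adjusted p 1.2e-08) and Samd8, a ceramide phosphoethanolamine synthase, higher (0.22, adjusted p 0.0026). Of 8 genes from glucosylceramide to gangliosides, 3 were lower at 4 weeks (1 with a sex term), and 6 lower and 2 higher at 4.5 weeks. Ugcg opens this branch from ceramide, also the substrate of Ugt8a. Ugcg had 41.2 ± 1.9 CPM in cKO and 78 ± 2.4 CPM in controls at 4.5 weeks (-0.92, adjusted p 1.2e-08). It was also lower at 4 weeks (-0.21, adjusted p 0.0086, or 0.13 with a sex term). St8sia1, the sialyltransferase of ganglioside GD3, was lower at both times (-0.54, adjusted p 0.0016, and -1.56, adjusted p 5e-08). B4galnt1 (0.31, adjusted p 0.00072) and B3galt4 (0.46, adjusted p 0.014) were higher at 4.5 weeks, and B3galt4 lost its call without cKO library 1 (0.055) or without control libraries 1 and 2 (0.095).

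Most genes of lysosomal breakdown were higher at 4.5 weeks. Of 14 genes of lysosomal breakdown, 3 were lower and 4 higher at 4 weeks, and 1 lower and 12 higher at 4.5 weeks, with a median log2 fold change of 1.47. All genes tested had a median of 0.021 there, with 32.6% lower and 33.3% higher. At 4 weeks 17.2% of all genes were lower and 20.1% higher. Their summed level was 7780 to 7930 CPM in cKO and 2270 to 2310 CPM in controls at 4.5 weeks, beside the microglia and macrophage markers given above, whose part was not tested. Hexa, a subunit of hexosaminidase, had 483 ± 67 CPM in cKO and 44.5 ± 4.3 CPM in controls at 4.5 weeks (3.44, adjusted p 1e-10) and was higher at 4 weeks (0.80, adjusted p 4.9e-05). Ctsa, the protective protein of lysosomal galactosidase, was higher at 4.5 weeks (2.97, adjusted p 1e-10). Smpd1, acid sphingomyelinase, was the only gene of this lysosomal list called lower at that time (-0.26, adjusted p 0.0021). Arsa, which removes the sulfate that Gal3st1 adds, was lower at 4 weeks (-0.39, adjusted p 0.00023), as was the GM2 activator gene Gm2a (-0.38, adjusted p 0.00092). At 4.5 weeks Arsa had 40.1 ± 1.1 CPM in cKO and 40.1 ± 1.3 CPM in controls (adjusted p 0.98). Gm2a then had 241 ± 8.6 CPM in cKO and 125 ± 7.3 CPM in controls. Galc, which removes the galactose that Ugt8a adds and was chosen after its values were seen, had 25.2, 28.1 and 25.5 CPM in cKO at 4 weeks, against 31.5, 34.4 and 36.6 CPM in controls, and 99.2, 88 and 88.8 CPM in cKO at 4.5 weeks, against 39.4, 38.5 and 37.9 CPM in controls. It was below control without overlap at 4 weeks and above it at 4.5 weeks (log2 fold changes -0.38, adjusted p 0.0014, and 1.25, adjusted p 9.5e-09).

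Of 14 genes of non-lysosomal breakdown and sphingosine phosphate, 4 were lower and 4 higher at 4 weeks (1 higher with a sex term, without control library 1 or without cKO library 2), and 4 lower and 8 higher at 4.5 weeks (4 higher without control libraries 1 and 2). Over all genes tested, 37.2% were called at 4 weeks and 65.9% at 4.5 weeks. Sgpl1, the lyase that ends the pathway, had 62.3 ± 7.3 CPM in cKO and 38.6 ± 2.7 CPM in controls at 4 weeks (0.69, adjusted p 3.1e-05), and 242 ± 8.7 CPM in cKO and 39.9 ± 0.43 CPM in controls at 4.5 weeks (2.60, adjusted p 1.1e-10). Asah2, neutral ceramidase, was lower at both times (-0.47, adjusted p 0.002, and -1.49, adjusted p 2.8e-08), as was Sgpp2, a phosphatase of sphingosine phosphate (-0.57, adjusted p 0.0022, and -2.37, adjusted p 4.7e-09). Acer3, alkaline ceramidase, was higher at both (0.35, adjusted p 0.012, and 0.70, adjusted p 2.7e-05), the earlier call being lost without control library 1 (0.055), without cKO library 2 (0.06) and with a sex term (0.072).

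**Figure D5:**
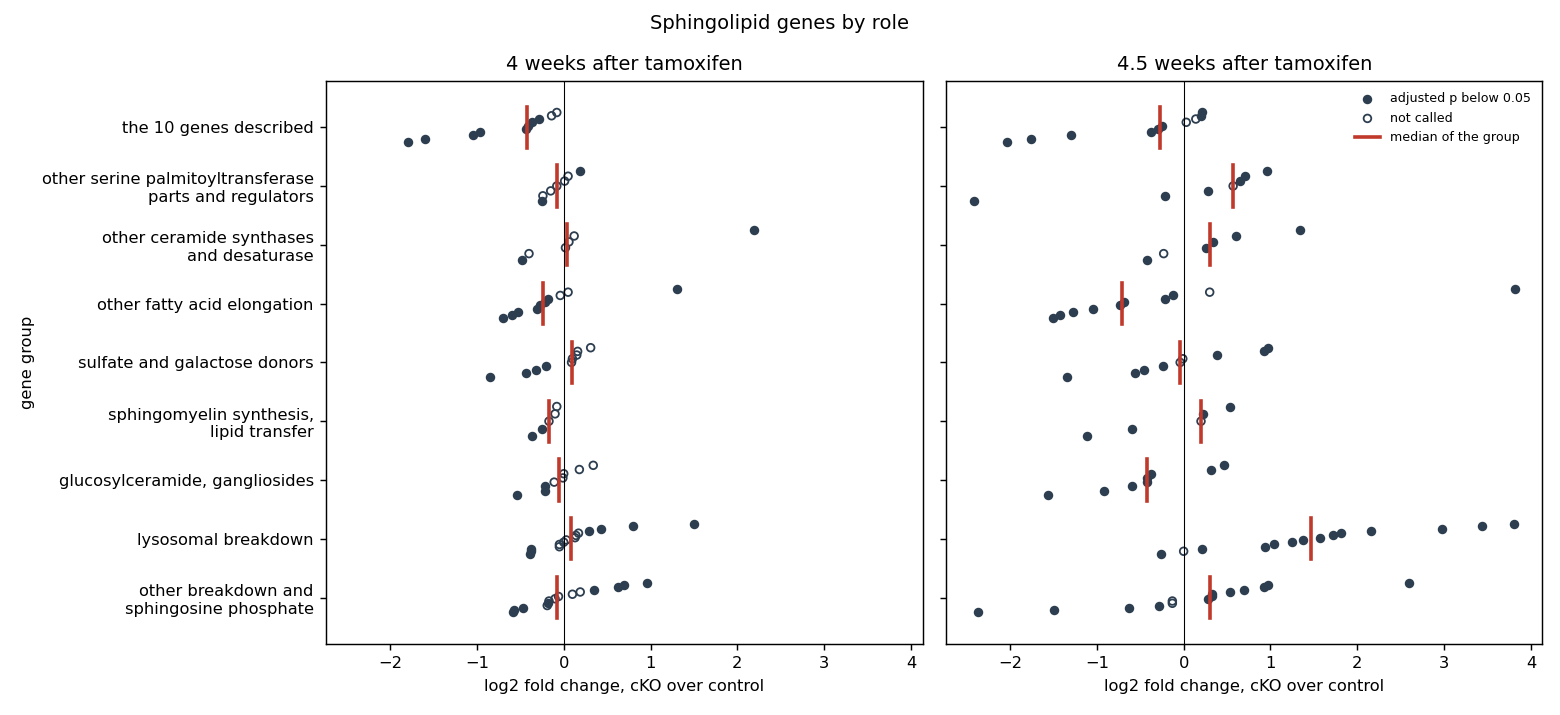
Log2 fold change of cKO over control for the 10 genes and for 73 other sphingolipid genes by role, at 4 weeks (left) and 4.5 weeks (right); filled points have an adjusted p below 0.05 and the red bar is the median of a group. At 4.5 weeks the group of fatty acid elongation has its median at -0.71 and that of lysosomal breakdown at 1.47.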

How the data were processed

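Spinal cord RNA was extracted with QIAzol and its messenger RNA was sequenced from TruSeq libraries (kit version 2), per the labels' protocols. Strand is not kept by that kit, so a gene's reads and those of a partner that overlaps it or lies antisense cannot be told apart. The authors deposited estimated counts, with 1 table for each time and no scaling for depth or gene length. STAR, RSEM and mm39 are named, per the submitters' processing notes, with no versions, and the annotation release is not given in the sources used here.

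The deposited estimated counts were rounded to whole numbers. The analysis used edgeR 4.0.16 under R 4.3.3, with its filter on low counts with the 4 groups, trimmed mean of M values, 1 model with a mean per group over all 12 libraries, and the quasi-likelihood F test, with Benjamini-Hochberg adjustment over the 19278 genes tested. No symbol was given for 6753 genes, which were kept under their identifiers, and 27 symbols that stood as dates were restored. Levels per kilobase used the longest coding transcript of GENCODE M21. A single value was compared by an exact permutation test. The members, the other gene lists, the tests and the naming rule were chosen with earlier results of these data known. The rule named all 10 members, of each list per time the 2 called genes with the smallest p in each direction, exceptions of a list, the 3 genes most like 5 of the members, and defining markers; a few results under this rule are not reported here. Alternatives were DESeq2 1.42.0 (its size factors in edgeR, and its own Wald test), voom of limma 3.58.1, other filters and scalings, a test against a 1.5-fold change, a replicate block, a robust spread, each time fitted by itself, and a term for sex. Further alternatives left out each library in turn, control libraries 1 and 2 of 4.5 weeks together, or the haemoglobin and mitochondrial genes. The labels call the 3 samples of a group independent biological replicates.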

Additional observations from a re-analysis of the deposited data

Results flagged for a closer look

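The effect of genotype differed between 4.5 and 4 weeks, by a test of the difference itself, for 4 of the 10 genes. That share is no more than the background, since 40.7% of all genes tested were called in this comparison. The cKO effect at 4.5 weeks minus that at 4 weeks was 0.81 for Gal3st1, 0.64 for Elovl1, 0.43 for Sgms1 and 0.29 for Sptlc1 on the log2 scale. The calls of Sgms1 and Sptlc1 were lost with a sex term. For Gal3st1 and Elovl1 the controls of 4.5 weeks, all female, were also lower than those of 4 weeks, all male. With a sex term, which rests on the 3 cKO libraries of 4 weeks alone, the change of effect was 0.80 for Gal3st1 (adjusted p 0.0052) and 0.64 for Elovl1 (adjusted p 0.0019); between the control groups time and sex cannot be told apart.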

How the results depend on the processing

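Tested against a 1.5-fold change, 4 members were lower at 4 weeks, 3 lower and 0 higher at 4.5 weeks, and 0 differed in effect between the times, between the control groups or between the cKO groups; 3 other sphingolipid genes were then called at 4 weeks and 29 at 4.5 weeks. With a sex term, 2 members differed in effect between the times, 0 between the control groups (with Elovl1 still at -0.37 and Gal3st1 at -0.46), and 19 other genes were called at 4 weeks. Without control libraries 1 and 2 of 4.5 weeks, 0 members were higher at 4.5 weeks, 2 differed in effect between the times and 0 between the control groups. Leaving out each library in turn gave 7 to 8 members lower at 4 weeks, 5 to 6 lower and 1 to 2 higher at 4.5 weeks, 3 to 5 with a changed effect, 2 to 3 differing between the control groups and 4 to 6 between the cKO groups, 26 to 39 and 57 to 65 other genes called at the successive times, and 17 to 19 values relative to the myelin proteins without overlap. Same-numbered libraries did not deviate together (correlations of -0.25 to 0.012 at 4 weeks and -0.021 to 0.087 at 4.5 weeks), and with a replicate block 8 members were lower and 0 higher at 4 weeks, 6 lower and 2 higher at 4.5 weeks, 4 differed in effect, and 35 and 61 other genes were called; the block left no test between times within a genotype. The sign turned only for values that were not called: Sgms1 at 4.5 weeks (-0.03 without control libraries 1 and 2), the change of effect of Degs1 (0.00 with DESeq2 size factors, with 1 CPM in 3 libraries and with the Wald test, 0.03 with a sex term and without control libraries 1 and 2) and of Ugt8a (0.00 with upper quartile scaling), and, with a library left out, Sptlc2 at 4.5 weeks (0.00 to 0.05), the change of effect of Degs1 (-0.03 to 0.04) and Ugt8a (-0.11 to 0.26), the control difference of Degs1 (-0.03 to 0.01) and the cKO difference of Degs1 (-0.04 to 0.01), Cers2 (-0.09 to 0.04), Elovl7 (-0.16 to 0.03) and Ugt8a (-0.19 to 0.16). The causes of these changes were not tested. No scaling moved the median of all genes by 0.1 on the log2 scale. For Ugt8a the interval of the change of effect between the times reached 0.45 and more on the log2 scale in either direction, so a smaller change could be missed for that gene. Intervals differed between members, and changes of 0.43 for Sgms1 and 0.29 for Sptlc1 were called.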
